A study of Mus musculus with 2 samples.

Results

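Mir106b, Mir93 and Mir25 are the 3 miRNA genes that lie together inside Mcm7, and their levels in newborn mouse thymus are described here. They were taken by position, as the miRNA genes on the minus strand of chromosome 5 between 138165321 and 138165818 (mouse genome build GRCm38, also called mm10), and are 3 of the 1973 miRNA genes in the count tables. The study sequenced small RNA under 30 nucleotides from whole thymus, both lobes, of 2 pups of 1 litter on postnatal day 0. The mice were of the strain B6NCrl, with no treatment or engineered allele given, and sex was not collected. Replicate 1 was pup 2 and replicate 2 was pup 3, each with 1 library, and together they form 1 group with no contrast between conditions. Both carry 1 donor identifier in the labels, and only the sample descriptions set them apart as pups. Differences between animals and between library preparations cannot be told apart here.

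Mcm7 encodes a subunit of the helicase that unwinds DNA at replication forks, and its transcription rises in dividing cells under E2F factors. The miRNAs of its intron are processed from the same transcript. A miRNA chooses its target mRNAs mainly by its seed, bases 2 to 8 from the 5′ end. The miR-17 seed, carried by miR-106b and miR-93, is known for repressing the cell cycle inhibitor p21 and the proapoptotic protein Bim, and miR-25 carries the seed of miR-92a. The cluster is a paralog of the Mir17hg cluster (Mir17 to Mir92-1), which promotes the proliferation and survival of lymphocytes, and of the Mir106a cluster (Mir106a to Mir363) on the X chromosome. Mice that lack the Mcm7 cluster alone are known to be viable.

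The 3 hairpins are shown first, since all counts are sums over them. They are RefSeq sequences of build GRCm38.p6 from chromosome 5, minus strand, written 5′ to 3′, with the mature arms in capitals. The first arm of each is called 5p and the second 3p. The count tables give 1 number per gene and do not separate the arms.
Mir106b: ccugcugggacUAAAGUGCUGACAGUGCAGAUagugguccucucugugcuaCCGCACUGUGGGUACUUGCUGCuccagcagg
Mir93: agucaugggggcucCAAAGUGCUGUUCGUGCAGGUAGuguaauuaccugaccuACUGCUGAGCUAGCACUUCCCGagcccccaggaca
Mir25: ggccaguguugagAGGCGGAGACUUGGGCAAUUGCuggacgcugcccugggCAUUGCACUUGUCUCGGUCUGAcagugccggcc

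Mir106b (ENSMUSG00000065514.1) spans chr5:138165737-138165818, Mir93 (ENSMUSG00000065527.1) chr5:138165523-138165610 and Mir25 (ENSMUSG00000065394.1) chr5:138165321-138165404. All lie in intron 13 of the 15-exon transcript Mcm7-201, on the strand of Mcm7 (ENSMUSG00000029730.16, chr5:138164583-138172422). The intron is 748 bases long. The Mir106b hairpin starts 91 bases after exon 13, the Mir93 hairpin follows after a gap of 126 bases, and the Mir25 hairpin after a further 118 bases, ending 159 bases before exon 14. Mir93 and Mir25 also fall within an exon of Mcm7-202, a short Mcm7 transcript annotated as a retained intron.

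Seeds split the cluster. The next sequences are mature arms with the seed AAAGUGC of miR-106b-5p and miR-93-5p, the seed in capitals. They are those of the 3 paralogous clusters, and miR-6383, whose gene had 0 counts, is left out. They are shown because they share these 7 bases and differ in the others.
miR-106b-5p: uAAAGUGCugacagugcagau
miR-93-5p: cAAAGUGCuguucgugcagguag
miR-17-5p: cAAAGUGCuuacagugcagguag
miR-20a-5p: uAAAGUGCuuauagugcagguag
miR-106a-5p: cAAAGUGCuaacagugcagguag
miR-20b-5p: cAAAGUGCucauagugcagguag

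The seed AUUGCAC of miR-25-3p is shared with the arms below, again with the seed in capitals. miR-367-3p, whose gene had 0 counts, is left out. The miR-92a-3p sequence is encoded at both Mir92-1 and Mir92-2, which matters for its counts.
miR-25-3p: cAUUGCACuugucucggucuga
miR-92a-3p: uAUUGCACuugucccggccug
miR-363-3p: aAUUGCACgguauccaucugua
miR-32-5p: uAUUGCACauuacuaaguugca
miR-92b-3p: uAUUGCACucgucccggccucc

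Aligned from the 5′ end without gaps, miR-93-5p and miR-106b-5p matched at 16 of 21 positions. Each was nearer to an arm of another cluster than to its neighbour in the intron. miR-93-5p matched miR-20b-5p at 20 of 23 positions, and miR-106b-5p matched miR-17-5p, miR-20a-5p and miR-106a-5p at 18 of 21 each. miR-25-3p matched miR-92a-3p at 18 of 21 positions and miR-363-3p at 9 of 22.

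Reads that mapped to more than 1 place were tallied apart from the genes by the authors, so a gene can be undercounted where its sequence recurs. None of the 1005 RefSeq hairpins other than their own held any of the members' 6 mature arms whole. The longest stretch that an arm shared with another hairpin was 12 bases for miR-25-3p, with Mir92-1 and Mir92-2. It was at most 10 bases for the other 5 arms. In GENCODE M21 transcripts, 141767 in all, the 6 arms occurred whole in their own genes and, for Mir93 and Mir25, in Mcm7, and none occurred on the other strand. These searches do not cover the rest of the genome.

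The hairpins of the Mcm7 cluster were richer in G and C than those of its paralogs. GC content was 57.3% in Mir106b, 55.7% in Mir93 and 63.1% in Mir25, against 38.1% to 47.5% in the 12 hairpins of the 2 paralogous clusters. The ranges do not overlap. GC content and the folding energies below were not computed for other hairpins. Whether the members or the paralogs are the unusual ones was therefore not examined, and whether energy follows GC content was not tested. Folding energies computed with RNAfold were -41.0 kcal per mol for Mir106b, -46.3 for Mir93 and -35.9 for Mir25, against -41.4 to -22.6 in the paralogs, so that Mir93 alone lay outside the paralogs' range. Per base, which allows for hairpin length, the energies were -0.50 for Mir106b, -0.53 for Mir93 and -0.43 for Mir25, against -0.49 to -0.27 in the paralogs, and Mir106b then lay outside the range as well.

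The libraries held 2734133 gene-strand counts in replicate 1 and 1289151 in replicate 2, of 10642220 and 4892171 reads. Multimapping reads made up 56.3% and 57.5%. Levels are counts per 1000000 gene-strand counts (CPM), and errors are SD over the 2 libraries (n = 2). A gene counts as detected with at least 10 counts in both libraries, which 294 genes had. A count of 0 allows up to 3 counts, or 1.097 CPM in replicate 1 and 2.327 CPM in replicate 2. The thymocyte marker Mir181a-1 stood at 36632 CPM ± 832 and its neighbour Mir181b-1 at 109 ± 33.3, both undercounted where reads map to a second locus. Lymphocyte markers Mir150 (2093 CPM ± 339) and Mir155 (3513 ± 394) were present, as was the leukocyte miRNA read opposite to Mir142b (140102 ± 2203). So were markers of epithelium (Mir205, 9875 CPM ± 749, and Mir200c, 9304 ± 1550), endothelium (Mir126a, 32674 ± 6540) and mesenchyme (Mir143, 50145 ± 10120). Of the markers of other tissues that were looked up, Mir206 of skeletal muscle stood at 444 CPM ± 2.09, Mir451a of red blood cells at 113 ± 43.8, Mir122 of liver at 99.1 ± 29.9 and Mir208b of heart at 21.9 CPM in replicate 1 and 185 CPM in replicate 2. Mir124a-1 of brain had 0 counts, which cannot be read as absence of miR-124, since its mature sequence is known from several loci. In such whole tissue, the number of cells that express a miRNA and its amount per cell cannot be told apart.

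All 3 members were detected, and all were abundant, but not equally. Mir93, the middle gene, had 82562 counts in replicate 1 and 38079 in replicate 2, which is 30197 and 29538 CPM. Its mean of 29867 CPM ± 466 placed it 9th among the 1973 genes by gene-strand counts, and it was 9th in each library. This order leaves out reads on opposite strands, such as those opposite to Mir142b, and reads that mapped to more than 1 place. Genes whose sequence recurs can therefore rank too low. The members' arms were not found in other hairpins, so the members' ranks can be too high. Mir106b, the first gene, had 51348 and 22888 counts, or 18780 and 17754 CPM. It averaged 18267 CPM ± 726 and ranked 13th in replicate 1 and 17th in replicate 2. Mir25, the last gene and the one with the other seed, had 8390 and 3893 counts, or 3069 and 3020 CPM. It averaged 3044 CPM ± 34.5, ranking 62nd and 66th. Even Mir25 stood well above the median detected gene, at 239 CPM.

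**Figure D1:**
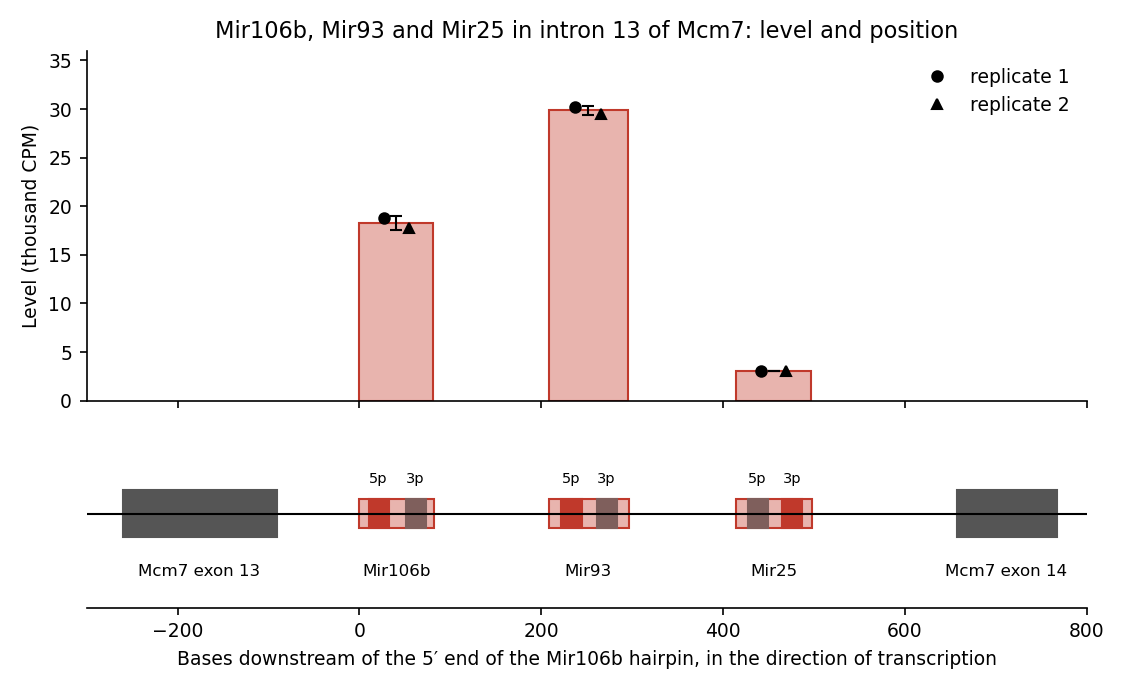
The upper panel plots the level of each Mcm7-hosted gene in CPM, with the axis in units of 1000 CPM (bar, mean; whiskers, SD over 2 libraries; circle, replicate 1; triangle, replicate 2), and the lower panel its hairpin in intron 13, with mature arms shaded (red for the arms miR-106b-5p, miR-93-5p and miR-25-3p, brown for the opposite arms). The middle gene, Mir93, is highest at 29867 CPM and the last, Mir25, lowest at 3044 CPM.

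The order Mir93, Mir106b, Mir25 held in both libraries, and the gaps exceeded the SDs. Mir93 exceeded Mir106b by 1.61 times in replicate 1 and 1.66 times in replicate 2 (mean 1.64 ± 0.0395). Counting error alone gave 95% exact binomial intervals of 1.590 to 1.626 and 1.637 to 1.691, which do not overlap. These intervals leave out all other sources of error, and with 1 library per pup the difference has no replicate check. Mir93 exceeded Mir25 by 9.84 and 9.78 times (mean 9.81 ± 0.0418), with overlapping intervals of 9.62 to 10.07 and 9.46 to 10.11. Mir106b exceeded Mir25 by 6.12 and 5.88 times (mean 6.0 ± 0.170), also with overlapping intervals. Because each ratio is taken within a library, none depends on how libraries are scaled.

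Within the cluster, Mir93 supplied 58.4% ± 0.488 of the counts, Mir106b 35.7% ± 0.563 and Mir25 5.95% ± 0.0751. Genes with the miR-17 seed thus made up 94.1% ± 0.0751 of the cluster's counts. Together the members took 5.12% ± 0.123 of all gene-strand counts, with 5.20% in replicate 1 and 5.03% in replicate 2, and 1.33% ± 0.00802 of all reads.

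No member had a read on the opposite strand in either library. With up to 3 counts allowed, as above, this is at most 0.00363% of the gene-strand count of Mir93 in replicate 1 and 0.00788% in replicate 2. For Mir25 it is at most 0.0358% and 0.0771%. Of the 294 detected genes, 95.2% in replicate 1 and 93.9% in replicate 2 likewise had none, so this is the usual picture in these tables. PCR reads without molecular identifiers are not independent molecules, so intervals and limits cover counting error only.

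Some neighbours in the order of levels could not be told from the members. Mir93 (29867 CPM ± 466) lay between Mir126a (32674 ± 6540) and Mir20a (28814 ± 2851), and both gaps were smaller than the larger SD. Mir93 and Mir20a changed places, with 30197 against 30830 CPM in replicate 1 and 29538 against 26797 CPM in replicate 2. Mir106b lay between Mir23b (18560 CPM ± 559) and Mir15a (17873 ± 1534), and Mir25 between Mir151 (3066 ± 121) and Mir484 (3019 ± 553), again within the SDs.

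Outside the paralogous clusters and seed families, the genes nearest in level over both libraries were found by distance on the log2 CPM scale. Nearest to Mir106b were Mir335 (distance 0.072), Mir23b (0.11) and Mir15b (0.13). Nearest to Mir25 were Mir30a (0.053), Mir151 (0.074) and Mir467e (0.079). Mir93 had no such close match, with Mir126a (0.35), Mir181a-1 (0.42) and Mirlet7i (0.45) the nearest. With 2 libraries of 1 group, this likeness is one of level alone.

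**Figure D2:**
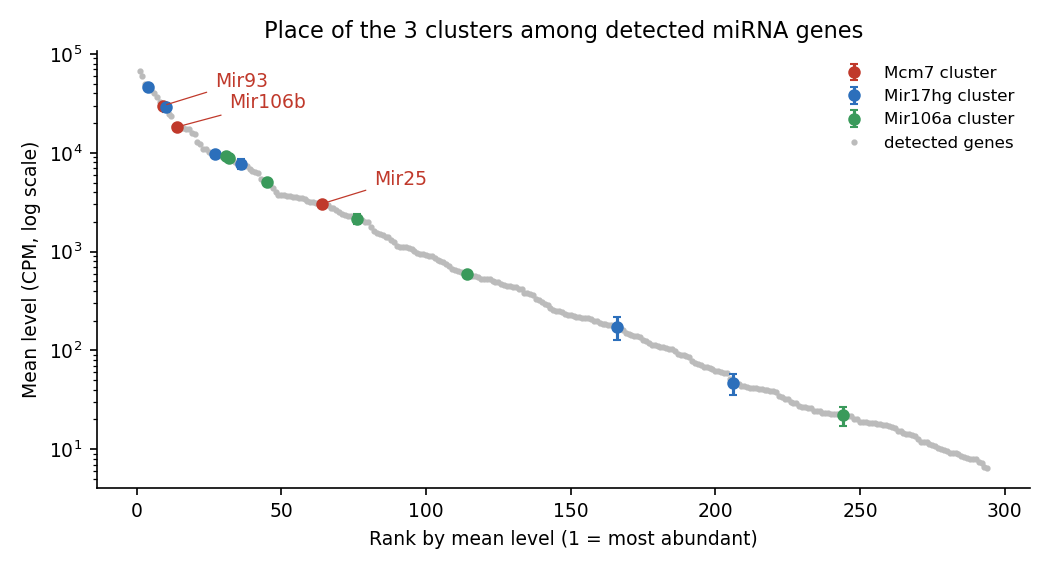
Mean level in CPM (log scale) of the 294 detected genes against rank, with the 3 clusters coloured and SD over 2 libraries as whiskers. Mir93 and Mir106b stand 9th and 14th by mean level and Mir25 64th, while the paralogous clusters spread from 4th to beyond 200th. Those beyond 200th, Mir19b-1 and Mir19b-2, share a mature sequence and can be undercounted.

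The littermates differed little in the members. On the log2 scale, the ratio of replicate 1 to replicate 2 was 0.08 for Mir106b (exact 95% interval 0.059 to 0.104), 0.03 for Mir93 (0.014 to 0.049) and 0.02 for Mir25 (-0.032 to 0.078). None of the 3 differed by more than 25% (larger CPM over smaller), against a background of 34.7% of the 294 detected genes that did, 72 lower and 30 higher in replicate 1. The share was 24.6% where each library had to hold 100 counts or more of the gene. Both backgrounds include genes with far fewer counts than the members. With only 3 genes, that none passed the limit does not set the members apart from other genes, and this was not tested. Among all detected genes the median log2 ratio was -0.04 and the median absolute log2 ratio 0.20, and 75.2% of genes had a larger absolute ratio than Mir106b. As 1 library stands for each pup, these ratios have no replicate check.

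The size of these ratios depended on the scaling, and so did the sign for Mir93 and Mir25, while Mir106b stayed above 0 in every scaling tried. With TMM library sizes the ratios were 0.17, 0.12 and 0.11 for Mir106b, Mir93 and Mir25, beside a median of 0.05 over detected genes. Per all reads they were 0.04, -0.0048 and -0.013, beside a median of -0.07, and the intervals of Mir93 and Mir25 then spanned 0. In each of these scalings the members lay above the median and within the 25% limit.

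**Figure D3:**
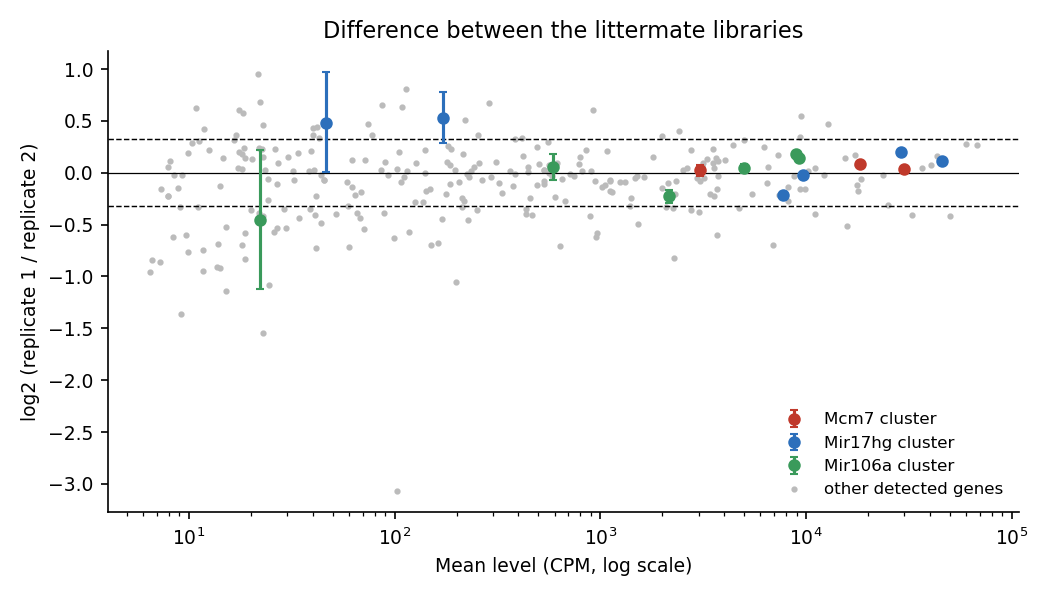
The log2 ratio of replicate 1 to replicate 2 is plotted against mean level in CPM (log scale) for 294 detected genes, with exact 95% intervals for the 3 clusters and dashed lines at a difference of 25%. The 3 Mcm7-hosted genes lie at 0.08, 0.03 and 0.02, while 2 of 6 Mir17hg genes and 1 of 6 Mir106a genes lie beyond the lines.

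Beside its paralogs, the Mcm7 cluster was intermediate in total gene-strand counts. It had 0.545 times the counts of the Mir17hg cluster in replicate 1 and 0.564 times in replicate 2 (mean 0.554 ± 0.0135). It had 1.94 and 2.01 times those of the Mir106a cluster (mean 1.98 ± 0.0525). Reads of miR-19b-3p and miR-92a-3p that map to both paralogs are missing from the paralogs' sums. Both ratios can therefore be too high by an unknown amount, and the intermediate place holds for the counted reads only. By matched seed, Mir93 had 0.651 ± 0.0251 times the counts of Mir17, and Mir106b 0.398 ± 0.00572 times. Mir93 and Mir20a were about level, at a ratio of 0.979 in replicate 1 and 1.102 in replicate 2. Against the X-linked genes, Mir93 was 3.23 ± 0.174 times Mir106a and 3.37 ± 0.246 times Mir20b, and Mir106b was 1.97 ± 0.0590 times Mir106a.

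Among genes with its seed, Mir25 stood below Mir363 and Mir92-1 and above Mir92-2 and Mir32 in both libraries. It had 0.609 ± 0.00611 times the counts of Mir363, and 0.396 ± 0.0468 times those of Mir92-1. Mir25 exceeded Mir92-2 by 1.42 ± 0.175 times and Mir32, on chromosome 4, by 5.42 ± 0.138 times. The counts of Mir92-1 and Mir92-2 are uncertain, as both encode miR-92a-3p and reads of that sequence map to both.

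The balance between the seeds, by counts of whole genes, also differed. Genes with the miR-17 seed outnumbered those with the miR-25 seed by 15.96 times in replicate 1 and 15.66 times in replicate 2 within the Mcm7 cluster. The ratio was 10.97 and 8.52 within the Mir17hg cluster and 2.71 and 2.36 within the Mir106a cluster. The Mcm7 cluster had the highest ratio in both libraries and the Mir106a cluster the lowest. This order was not tested. Reads of miR-92a-3p that map to both Mir92-1 and Mir92-2 are missing from the miR-25 seed counts of the other 2 clusters. Gene counts can also include reads of the arm without the seed. An unknown part of the counts of Mir92-1 and Mir92-2, where the arm with the seed is the shared one, may thus not carry it.

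**Figure D4:**
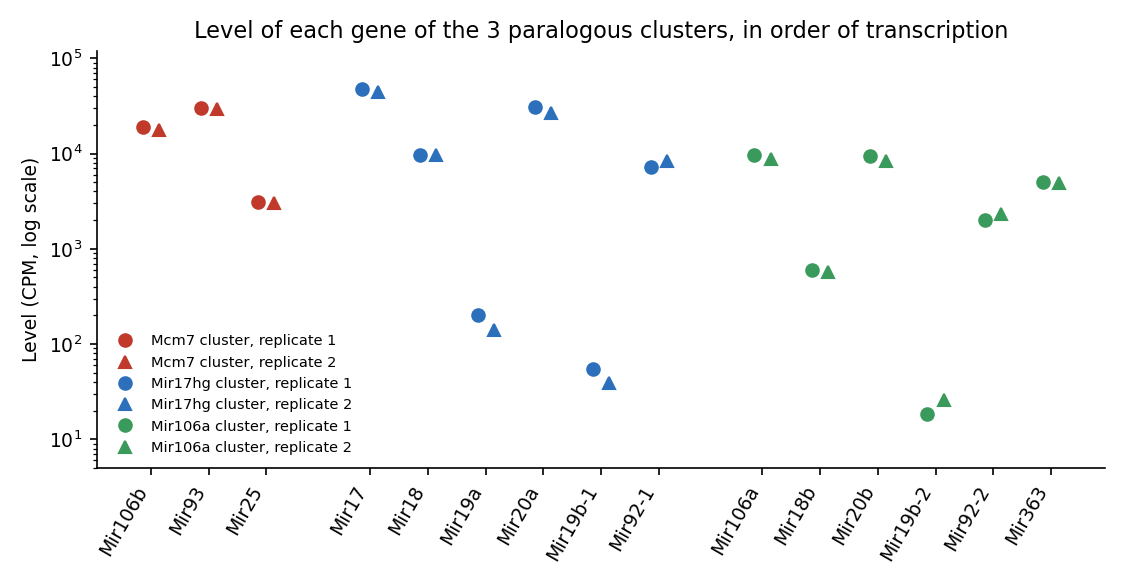
Level in CPM (log scale) of each gene of the Mcm7, Mir17hg and Mir106a clusters in order of transcription, with a circle for replicate 1 and a triangle for replicate 2. The Mcm7-hosted genes stay within 3020 to 30197 CPM, whereas both paralogous clusters reach below 60 CPM at Mir19b-1 and Mir19b-2. Mir19b-1 and Mir19b-2 share a mature sequence and can be undercounted.

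From the highest gene to the lowest, levels varied less within the Mcm7 cluster than within its paralogs, which also hold Mir18 and Mir19 genes. Highest over lowest was 9.81 (Mir93 over Mir25), against 989 in the Mir17hg cluster (Mir17 over Mir19b-1) and 419 in the Mir106a cluster (Mir106a over Mir19b-2). Mir19b-1 and Mir19b-2 encode the same mature miR-19b-3p, so that their counts are again uncertain. With the genes of shared mature sequence left out, a check chosen after seeing the data, the figure was 268 in the Mir17hg cluster (Mir17 over Mir19a) and 15.8 in the Mir106a cluster (Mir106a over Mir18b), the second of these near that of the Mcm7 cluster. Between the highest gene of the miR-17 seed and that of the miR-25 seed, the order was the reverse. Mir93 over Mir25 was 9.81, against 5.99 ± 0.962 for Mir17 over Mir92-1 and 1.85 ± 0.0894 for Mir106a over Mir363. The order of the clusters by spread thus depended on which genes were compared, and the reason was not tested. Grouping miRNA genes on 1 strand with neighbours within 1000 bases gave 42 groups with at least 2 detected genes. The Mcm7 cluster had the second highest summed level of these, 51179 CPM after 92419 CPM for the Mir17hg cluster. It was 26th of the 42 when ordered from the most even to the least. Of the 14 groups with at least 3 detected genes, 9 had a wider spread, and the median of the 14 was 33.1. Only 29 of the 42 groups were free of detected genes with a shared mature sequence. In the others, undercounting can change the spread and lower the sum. Both genes of the third group by sum, Mir181a-1 and Mir181b-1 (36740 CPM), are undercounted in this way. With neighbours within 10000 bases, Mir143 and Mir145a formed a group that moved the Mcm7 cluster to the third place by sum.

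The spread between libraries, as SD in percent of the mean CPM, was 3.97% for Mir106b, 1.56% for Mir93 and 1.13% for Mir25. In the other 2 clusters it ran from 0.964% (Mir18) to 25.7% (Mir19a). With TMM library sizes the members' spread was larger, at 8.11% for Mir106b, 5.70% for Mir93 and 5.28% for Mir25, beside 3.18% (Mir18) to 29.6% (Mir19a) in the other clusters. Per all reads it was smaller, at 2.18%, 0.234% and 0.660% for the same 3 genes. Summed over genes, the log2 ratio of replicate 1 to replicate 2 was 0.05 for the Mcm7 cluster (exact 95% interval 0.035 to 0.062), 0.10 for the Mir17hg cluster (0.089 to 0.109) and 0.10 for the Mir106a cluster (0.084 to 0.122). The 3 sums point the same way, and all stay within the 25% limit.

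Each seed family drew on several loci, by counts of whole genes, which can include reads of the arm without the seed. RefSeq lists 7 genes with an arm that carries the miR-17 seed, all of them counted, which together took 14.1% ± 0.796 of gene-strand counts. Mir93 supplied 21.2% ± 0.866 of the family's counts and Mir106b 12.96% ± 0.217, so that the Mcm7 cluster gave 33.4% in replicate 1 and 34.9% in replicate 2. The Mir17hg cluster gave 53.0% ± 0.794, of which Mir17 alone 32.6% ± 0.0763, and the Mir106a cluster 12.9% ± 0.289. The seventh gene, Mir6383, had 0 counts in both libraries.

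By counted reads, the miR-25 seed family was much smaller, with 1.85% ± 0.0915 of gene-strand counts over 7 genes. Its size can be too low by an unknown amount, since reads of miR-92a-3p that map to both Mir92-1 and Mir92-2 are missing. Mir25 gave 17.1% of the family's counts in replicate 1 and 15.7% in replicate 2 (mean 16.4% ± 0.997). Mir92-1 gave 41.7% ± 2.41, Mir363 27.02% ± 1.91, Mir92-2 11.6% ± 0.725, Mir32 3.03% ± 0.261 and Mir92b 0.219% ± 0.0328, and Mir367 had 0 counts. Without Mir92-1 and Mir92-2, whose mature sequence is shared, the share of Mir25 was 35.2% ± 0.228. Leaving genes out can only raise this share, so that figure does not correct for the missing reads. As reads of miR-92a-3p that map to both loci are not in the counts, the share of Mir25 in the family can be too high, by an unknown amount.

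**Figure D5:**
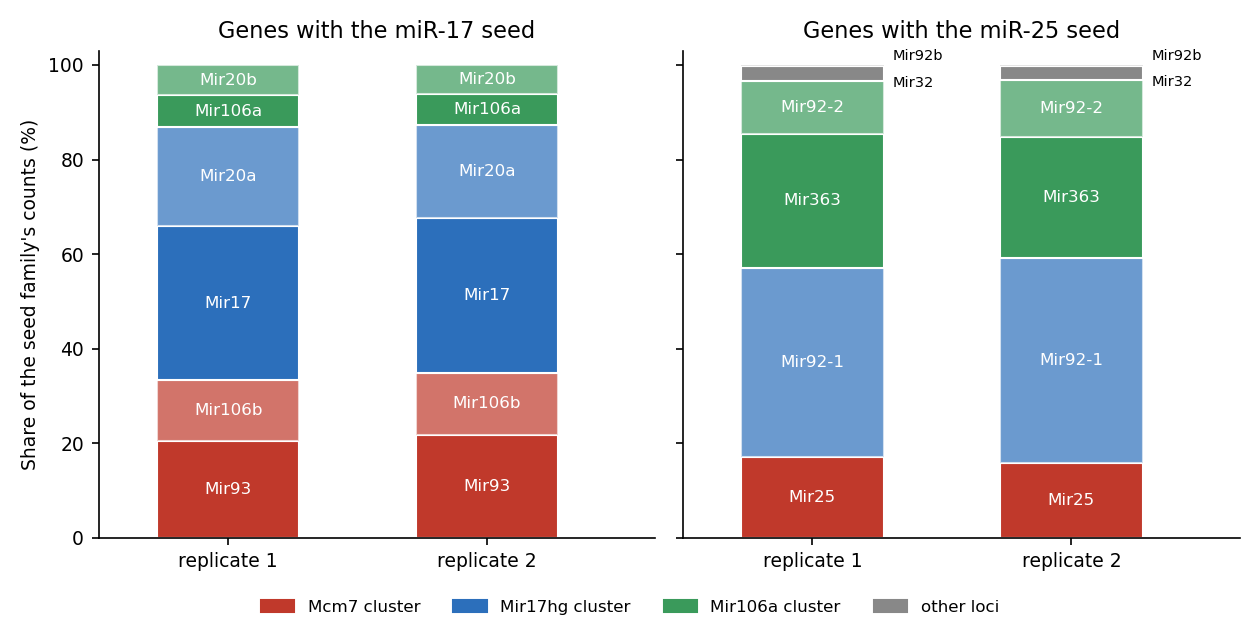
Stacked bars give the share of each gene in the counts of its seed family, in percent, for replicate 1 and replicate 2, coloured by cluster (grey, other loci). Mir93 and Mir106b together hold 33.4% and 34.9% of the miR-17 seed counts, and Mir25 holds 17.1% and 15.7% of the miR-25 seed counts.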

How the data were processed

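The authors deposited, for each library, a table of raw read counts per miRNA gene, neither pooled nor normalized. Per the text files deposited with the tables, reads were mapped to mm10 and counted over GENCODE M4. Aligner and counter: not given in the sources used here. The tables have 3 unnamed count columns. From the values these are both strands, the gene strand (used here) and the opposite strand. Totals of unmapped, multimapping and unassigned reads were left out of library sizes.

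Of 1973 gene identifiers, 1894 matched GENCODE M21, which gave symbols and coordinates, and M21 is later than M4. Sequences came from RefSeq tables (GRCm38.p6), in which 869 counted genes had a hairpin by symbol. Seed families were read from bases 2 to 8. CPM is the count over the gene-strand total of the library. With 1 group no quasi-likelihood test applies, and no p-value was computed. Ratios of replicate 1 to replicate 2 carry exact binomial intervals at 95%, and genes whose CPM differed by more than 25% (larger over smaller) were counted. The libraries are not copies of each other (chi-square 26749 on 293 degrees of freedom over detected genes).

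Alternatives were both strands, TMM (edgeR 4.0.16) and DESeq2 1.42.0 size factors, all reads as denominator, totals without the most abundant gene, other filters and folds, shared mature sequences left out, each library alone, and a wider grouping distance. Hairpins were folded with RNAfold 2.7.2. Other tools were R 4.3.3, Python 3.11.15 and scipy 1.17.1. Genes named by rule are the members, their paralogs and seed families, the 3 nearest genes per member and tissue markers. The brain marker Mir9-1 was looked up, but no counted gene had that symbol. Neighbours in rank, Mir145a and Mirlet7g were named after their values were seen. The members and lists were chosen with earlier results of these data known.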

Additional observations from a re-analysis of the deposited data

How the results depend on the processing

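Ratios between genes, and shares within a cluster or seed family, cannot change with the scaling of a library. With 2 libraries, leaving out 1 moves a mean by less than 1 SD by construction. Neither bears on stability. Levels followed the denominator. The levels of Mir106b, Mir93 and Mir25 were 15622, 25543 and 2603 CPM with both strands in the totals, 4752, 7771 and 792 per 1000000 of all reads, and 19601, 32044 and 3266 CPM with Mirlet7g, the gene with the highest gene-strand count, left out. The share of the Mcm7 cluster was then 4.38%, 1.33% and 5.49%. TMM and DESeq2 hardly move a mean over 2 libraries, but the SDs of Mir106b, Mir93 and Mir25 were 1483, 1704 and 161 CPM with TMM, against 726, 466 and 34.5 CPM without it. Without genes of shared mature sequence, Mir25 held 35.2% of the miR-25 seed counts, a share that leaving genes out can only raise. The number of genes that differed by more than 25% was 283 of 516 with at least 1 count in both libraries, 47 of 191 with at least 100, and 449 of 684 with no filter and a prior of 0.5 counts, and 6 of 294 genes passed 2-fold. No paired analysis was possible because the libraries form 1 group. An SD over 2 libraries is itself imprecise, and the multimapping reads (56.3% and 57.5%) limit every level.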
